A study of Mus musculus with 2 samples.

Results

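The cells described here are Spp1/Arg1-positive C1q macrophages of mouse liver tumours. Cells had at least 500 UMIs (unique molecular identifiers, each counting 1 captured RNA molecule), 250 or more genes, and no more than 10% of UMIs from mitochondrial genes. Of these, a positive cell had at least 5 UMIs of C1qa, C1qb and C1qc together and at least 2 UMIs of Spp1 and Arg1 together. It had at most 1 of the 5 Kupffer cell genes Clec4f, Vsig4, Timd4, Cd5l and Marco, no Cd3d, Cd3e or Cd3g UMI, and less than 5% of its UMIs from Alb, Apoa1, Apoa2 and Ttr. This gave 153 of 21998 filtered cells and of 23456 barcodes, with 107 positive cells in the STK library and 46 in the DMSO library. They are set against C1q cells that met the same rule with no Spp1 and no Arg1 UMI, called zero cells, of which there were 753 in the STK library and 849 in the DMSO library. Spp1, Arg1, the C1q genes, the Kupffer genes and Cd3 chose the cells, so their levels are a description and not a result.

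The tumours were hepatocellular carcinomas in the livers of MYC-ON mice that received by gavage either STK, an agent given in the labels only by that code, or DMSO, the vehicle. Both groups share the MYC-ON genotype, while the labels give neither the promoter that drives MYC nor the age, number and sex of the animals behind a library. The series title asks about SOAT1, a sterol-esterifying enzyme, and a pathway of 20(S)-hydroxycholesterol and the receptor GPR132. Live DAPI-negative CD45-positive cells were sorted by flow cytometry and run on the 10x Genomics 5′ v2 chemistry, as 1 STK library and 1 DMSO library with the same batch label. The filtered cells held 79681844 UMIs in the STK library and 78065924 in the DMSO library, with medians of 4930.5 and 4471.5 UMIs per cell. Since each group is 1 library, differences between groups cannot be set against a spread between replicates, so none was tested and each interval covers, at 95%, counting error alone. Fewer cells of a type and less RNA per cell cannot be told apart in a summed level.

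Macrophages that carry C1q, the recognition molecule of the classical complement pathway, arise in tumours from blood monocytes and from resident cells. Spp1 encodes osteopontin, a secreted phosphoprotein that binds CD44 and integrins, and Arg1 encodes arginase 1, which splits arginine into ornithine and urea. Spp1-expressing macrophages of tumours and of damaged liver often share a lipid-handling program with Trem2, Gpnmb, Cd9 and Fabp5, while Arg1 is also an enzyme of the urea cycle in hepatocytes.

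The positive cells carried the genes of macrophages. C1qa, which encodes a chain of C1q, stood at 2374 CPM (UMIs of a gene per 1000000 UMIs of the cell set) in STK positive cells and 1915 CPM in DMSO positive cells, beside 2494 and 2126 CPM in the zero cells. All 9 genes of a macrophage marker list were detected in both libraries, and a positive cell had a median of 148 of their UMIs in the STK library and 96 in the DMSO library, with no cell below 5. Trem2 was detected in 68 of 107 STK and 21 of 46 DMSO positive cells. Fn1 (fibronectin), the other marker proposed for these cells, was detected in 24 of 107 STK and 10 of 46 DMSO positive cells only, so it does not mark the set as a whole. Of the 5 Kupffer genes, of which the rule allowed 1 per cell, Cd5l, a scavenger protein, was the most abundant, in 30 of 107 STK and 20 of 46 DMSO positive cells. The sum of the 5 was 381 CPM in STK and 652 CPM in DMSO positive cells, with 3 and 2 of them at 0, against 238 CPM in STK and 258 CPM in DMSO zero cells. The libraries shared 203 barcodes. Of those, 2 belonged to STK positive cells and 1 to a DMSO positive cell, and none was positive in both.

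Markers of other cells were present in a few positive cells. Of a list of 26 hepatocyte and tumour genes, STK positive cells held a median of 7 UMIs per cell and a maximum of 839, and DMSO positive cells a median of 4 and a maximum of 1045, with 4 of the 26 genes at 0 in STK and 2 in DMSO positive cells. There were 7 positive cells with 50 or more UMIs of this list, 5 in the STK library with 156 to 839 UMIs and 2 in the DMSO library with 674 and 1045. The next cells held 43 and 14 UMIs. Ratios are therefore also given without all C1q cells that held 50 or more such UMIs, an alternative added after seeing the data and called here "without hepatocyte-rich cells". Of the 6 genes of an NK list, at least 3 UMIs were found in 4 STK positive cells, which held 312 of 317 such UMIs, and in 3 DMSO positive cells, which held 98 of 100. These were 3.74% of STK and 6.52% of DMSO positive cells, against 2.26% of STK and 1.65% of DMSO zero cells. Of 8 T cell genes, the 3 Cd3 genes were at 0 by the rule and 3 of the other 5 were at 0 in the positive cells of each library. The sum of the list was 44.6 CPM in STK and 17.6 CPM in DMSO positive cells. By the doublet caller Scrublet, 4 STK positive cells (3.74%) and 4 DMSO positive cells (8.70%) were called, and they were kept. Of the zero cells, 2.39% were called in the STK and 1.88% in the DMSO library.

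The libraries also differed in sex. Among positive cells, 49 of the STK library carried Xist RNA and no Y-linked RNA, and 25 carried Y-linked RNA and no Xist. In the DMSO library these numbers were 1 and 19. The female and male shares of the libraries differed in the same way over all filtered cells, with 4613 female and 1621 male cells in the STK library and 1025 female and 4439 male cells in the DMSO library. Values from male cells alone are therefore given beside some of the results. A difference between the libraries given without a male value cannot be told apart from their difference in sex.

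A larger share of the STK library than of the DMSO library was positive. Positive cells made up 0.987% of STK filtered cells (exact Clopper-Pearson interval 0.809 to 1.19) and 0.412% of DMSO filtered cells (0.302 to 0.550), a ratio of 2.39 (1.68 to 3.46). Of all C1q cells of the rule, 107 of 937 were positive in the STK library, or 11.4% (9.45 to 13.6), and 46 of 971 in the DMSO library, or 4.74% (3.49 to 6.27), a ratio of 2.41. The number of C1q cells itself was thus close in both libraries. Among male cells, 25 of 150 STK C1q cells (16.7%) and 19 of 409 DMSO C1q cells (4.65%) were positive, a ratio of 3.59 (1.90 to 6.89). Among female cells the DMSO library gave 1 positive cell of 49, against 49 of 443 in the STK library.

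Depth also differed between the libraries and between the cell sets. Positive cells had medians of 10200 UMIs in the STK and 6801.5 in the DMSO library, and zero cells 7688 and 5796. When every cell was thinned to 2000 UMIs before the rule was applied, which 9196 of 10846 STK and 9001 of 11152 DMSO filtered cells reached, 43 of 772 STK C1q cells (5.57%) and 13 of 723 DMSO C1q cells (1.80%) were positive, a ratio of 3.10 (1.64 to 6.28). At the threshold, 33 STK and 14 DMSO positive cells had 2 UMIs of Spp1 and Arg1 together, and 77 STK and 76 DMSO C1q cells fell just outside with 1. A minimum of 5 UMIs left 53 STK and 23 DMSO cells, a ratio of 2.39 among C1q cells.

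As a background, both genes were also measured in T cells and B cells. An Spp1 UMI was found in 17.3% of STK and 9.99% of DMSO C1q cells at median depths of 8009 and 5942 UMIs, against 4.18% of STK and 3.45% of DMSO T cells at 3679 and 3730 UMIs. Thinning to 2000 UMIs kept 872 STK and 852 DMSO C1q cells and 2921 STK and 2312 DMSO T cells. Spp1 was then in 9.86% of STK and 4.46% of DMSO C1q cells, above the 1.88% and 1.82% of T cells. Of B cells, it was in 1.36% of 147 STK cells and 0 of 103 DMSO cells. Single T cells held up to 58 Spp1 UMIs in the STK and 44 in the DMSO library. Whether the T cell share came from free RNA was not tested. An Arg1 UMI was found in 3.74% of STK and 2.78% of DMSO C1q cells, against 2.30% and 2.67% of T cells. After thinning, Arg1 was in 1.61% of STK and 0.704% of DMSO C1q cells and in 0.856% and 1.21% of T cells. The share of DMSO C1q cells with Arg1 was thus no higher than that of T cells. Cells with 50 or more hepatocyte or tumour UMIs and no C1q carried Arg1 in 52.7% of STK and 65.3% of DMSO cells at medians of 24990 and 25493 UMIs.

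Most positive cells were positive through Spp1. In the STK library 86 of 107 (80.4%) had Spp1 alone, 8 (7.48%) had Arg1 alone and 13 (12.1%) had both, and in the DMSO library 40 of 46 (87.0%) had Spp1 alone, 4 (8.70%) Arg1 alone and 2 (4.35%) both. Of the 7 hepatocyte-rich cells, 4 of the 5 in the STK library and both in the DMSO library were positive through Arg1 alone. Whether Arg1 in them came from the macrophage was not tested.

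Spp1 (GRCm38 chr5:104435118-104441050, plus strand) stood at 1149 CPM in STK positive cells, from 1340 UMIs in 99 of 107 cells, and at 921 CPM in DMSO positive cells, from 366 UMIs in 42 of 46 cells. The medians were 4 and 3.5 UMIs per cell. A few cells held much of this RNA. The highest STK cell had 264 Spp1 UMIs, 19.7% of the total, and without it the level was 931 CPM, while the highest DMSO cell had 49 and the level without it was 801 CPM. Arg1 (chr10:24915221-24927484, minus strand) stood at 184 CPM in STK positive cells, from 215 UMIs in 21 cells, and at 93.1 CPM in DMSO positive cells, from 37 UMIs in 6 cells. The positive cells held 22.2% of all Spp1 UMIs of the STK filtered cells and 15.7% of those of the DMSO filtered cells, but 8.44% and 0.942% of the Arg1 UMIs, so most RNA of both genes lay outside them.

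**Figure D1:**
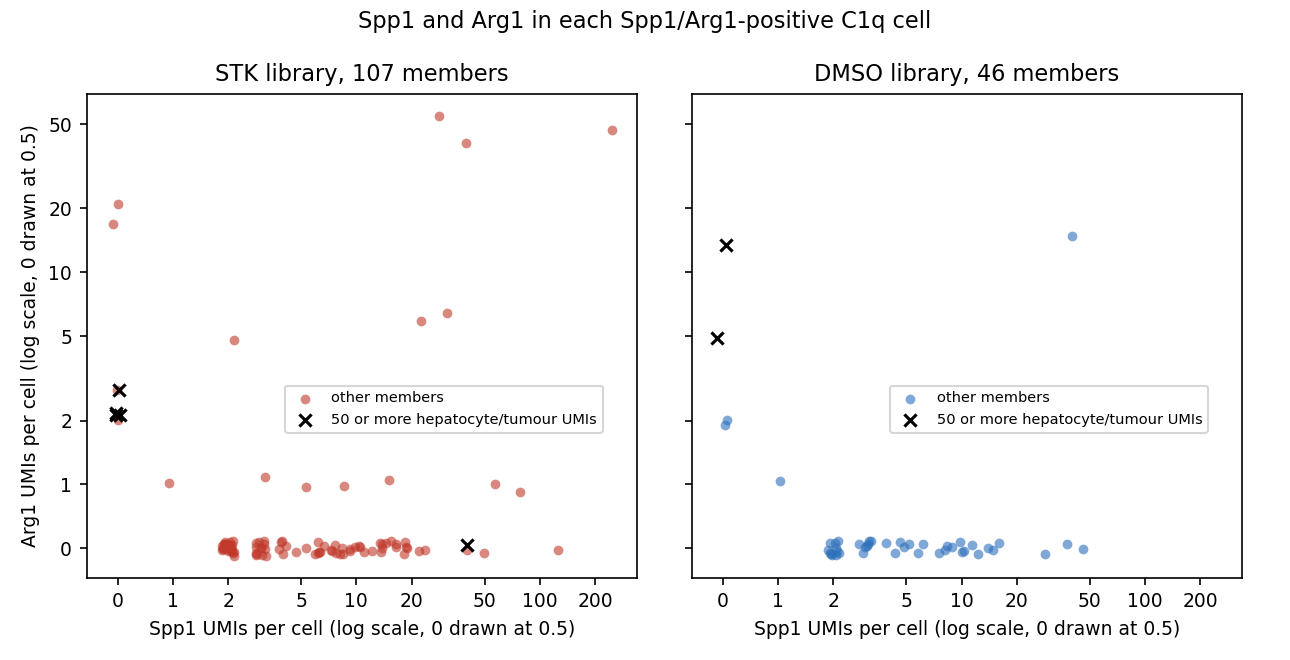
Spp1 UMIs (horizontal axis) against Arg1 UMIs (vertical axis) in each positive cell, on log axes with 0 drawn at 0.5 and points jittered, STK library left and DMSO library right. Crosses are the 7 cells with 50 or more hepatocyte or tumour UMIs; 86 of 107 STK and 40 of 46 DMSO cells lie on the row with no Arg1.

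Within the positive cells, summed levels of some other genes differed between those with Arg1 and those with Spp1 alone. Cells with Arg1 were few, and the 13 STK cells with both genes had a median of 1 Arg1 UMI. An Arg1 UMI was also found in 2.30% of STK T cells. The part of single cells in these levels is given for Fn1 and Gpnmb only. Without hepatocyte-rich cells, 17 STK cells with any Arg1 UMI stood at 306 CPM of Gpnmb and 85 STK cells with Spp1 alone at 730 CPM. Hilpda, which encodes an inhibitor of lipid droplet lipolysis induced by hypoxia, stood at 793 CPM in cells with Arg1 and 376 CPM in cells with Spp1 alone. Vegfa, the endothelial growth factor, stood at 540 and 158 CPM, Thbs1 (thrombospondin 1, a matrix glycoprotein) at 1307 and 683 CPM, and Fn1 at 2815 and 59.4 CPM, with 377 of the 433 Fn1 UMIs of the cells with Arg1 in 3 cells. Those 3 cells held no Gpnmb UMI. Trem2 stood at 390 and 346 CPM and so differed little between the kinds. In the DMSO library only 4 cells with Arg1 remained, with Hilpda at 835 CPM from 17 UMIs against 131 CPM in the 40 cells with Spp1 alone, and no Gpnmb UMI against 399 CPM.

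The genes that were most like Spp1 or Arg1 across positive cells were ranked by the smaller of the 2 libraries' Spearman correlations over 842 genes, 102 STK cells and 44 DMSO cells. These are weak correlations in sparse counts, they share depth within a cell, and they are a description. For Spp1 the highest were Plin2, the lipid droplet coat protein (0.30 in STK and 0.42 in DMSO cells), Cstb, a cathepsin inhibitor (0.32 and 0.30), and Emp3, a membrane protein (0.27 and 0.37). Trem2 was the fifth (0.22 and 0.26). For Arg1 they were Sf3b5, a splicing factor subunit (0.36 and 0.33), and Hilpda (0.27 and 0.46), and Thbs1 was among the 8 highest (0.35 and 0.21). The 102 and 44 cells leave out hepatocyte-rich cells. Even with those, only 21 STK and 6 DMSO positive cells had an Arg1 UMI. All other cells were tied, so the Arg1 values rest on few cells, most of all in the DMSO library.

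Positive cells carried more RNA of lipid-associated macrophage genes than zero cells in both libraries. The highest was Gpnmb, a transmembrane glycoprotein of lysosome-rich macrophages. It stood at 614 CPM in STK positive cells and 112 CPM in STK zero cells, and at 309 CPM in DMSO positive cells and 70.7 CPM in DMSO zero cells. The log2 ratios were 2.46 (2.30 to 2.61) in the STK and 2.13 (1.82 to 2.43) in the DMSO library, and 2.03 and 1.07 among male cells. Gpnmb was not a feature of every positive cell, since 61 of 107 STK and 24 of 46 DMSO positive cells had no Gpnmb UMI. Of the zero cells, 627 of 753 and 734 of 849 had none.

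Trem2, a lipid-sensing receptor, stood at 327 CPM in STK positive cells and 88.2 CPM in STK zero cells, and at 179 CPM in DMSO positive and 44.0 CPM in DMSO zero cells. Its log2 ratios were 1.89 (1.70 to 2.08) and 2.02 (1.62 to 2.41), and 1.66 and 1.67 among male cells, the closest of the 4 leading genes across libraries and sexes. Cd9, a tetraspanin, stood at 346 CPM in STK positive and 95.6 CPM in STK zero cells, and at 186 and 66.1 CPM in those of the DMSO library, with log2 ratios of 1.86 (1.67 to 2.04) and 1.49 (1.11 to 1.86). Among male cells these were 0.99 and 0.89. F13a1, which encodes coagulation factor XIII A and marks monocyte-derived macrophages, stood at 105 CPM in STK positive and 27.3 CPM in STK zero cells, and at 174 and 35.6 CPM in those of the DMSO library, with log2 ratios of 1.95 and 2.28. All 4 genes were past 1.5-fold in both libraries.

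Other genes of lipid handling followed at smaller ratios. Fabp5, a fatty acid-binding protein, stood at 3715 CPM in STK positive and 1703 CPM in STK zero cells, and at 2202 and 1406 CPM in the DMSO library (log2 ratios 1.13 and 0.65). Cd63, a tetraspanin of late endosomes, stood at 1462 CPM in STK positive and 656 CPM in STK zero cells, and at 969 and 467 CPM in the DMSO library (1.16 and 1.05). Lpl, the lipase that frees fatty acids from triglyceride-rich lipoproteins, had log2 ratios of 1.08 and 0.86, the scavenger receptor Cd36 of 1.07 and 1.13, and Fabp4 of 1.06 and 1.63. For Fabp4 the male cells gave -0.10 in the STK and 1.91 in the DMSO library. Hilpda stood at 403 CPM in STK positive and 166 CPM in STK zero cells, and at 146 and 68.7 CPM in the DMSO library (1.28 and 1.09).

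As a list, the 23 lipid-associated macrophage genes were all measured, with at least 10 UMIs over both cell sets. In the STK library 13 were at least 1.5 times higher in positive cells and none lower, with a median log2 ratio of 0.68, and in the DMSO library 12 were higher and 1 lower, with a median of 0.65. Over all genes measured, 12.7% were at least 1.5 times higher and 9.56% lower in the STK library, and 19.2% higher and 11.6% lower in the DMSO library, with a median of 0.00 in both. Without hepatocyte-rich cells the counts were 13 and 15 higher and none lower, at medians of 0.72 and 0.77, against 9.62% and 11.0% of all genes. Among male cells 12 of 22 genes were higher and 1 lower in the STK library (14.0% and 12.7% of all genes), and 10 of 23 higher and 1 lower in the DMSO library (19.4% and 11.1%). This list was chosen with earlier results of these data known, so its direction is a description. Not all of its genes were higher. Without hepatocyte-rich cells, Itgax, an integrin chain, was at log2 ratios of -0.04 in the STK and -0.41 in the DMSO library. Cst7, a cathepsin inhibitor, was at 0.11 in the STK and 1.91 in the DMSO library, and so past 1.5-fold in the DMSO library only.

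**Figure D2:**
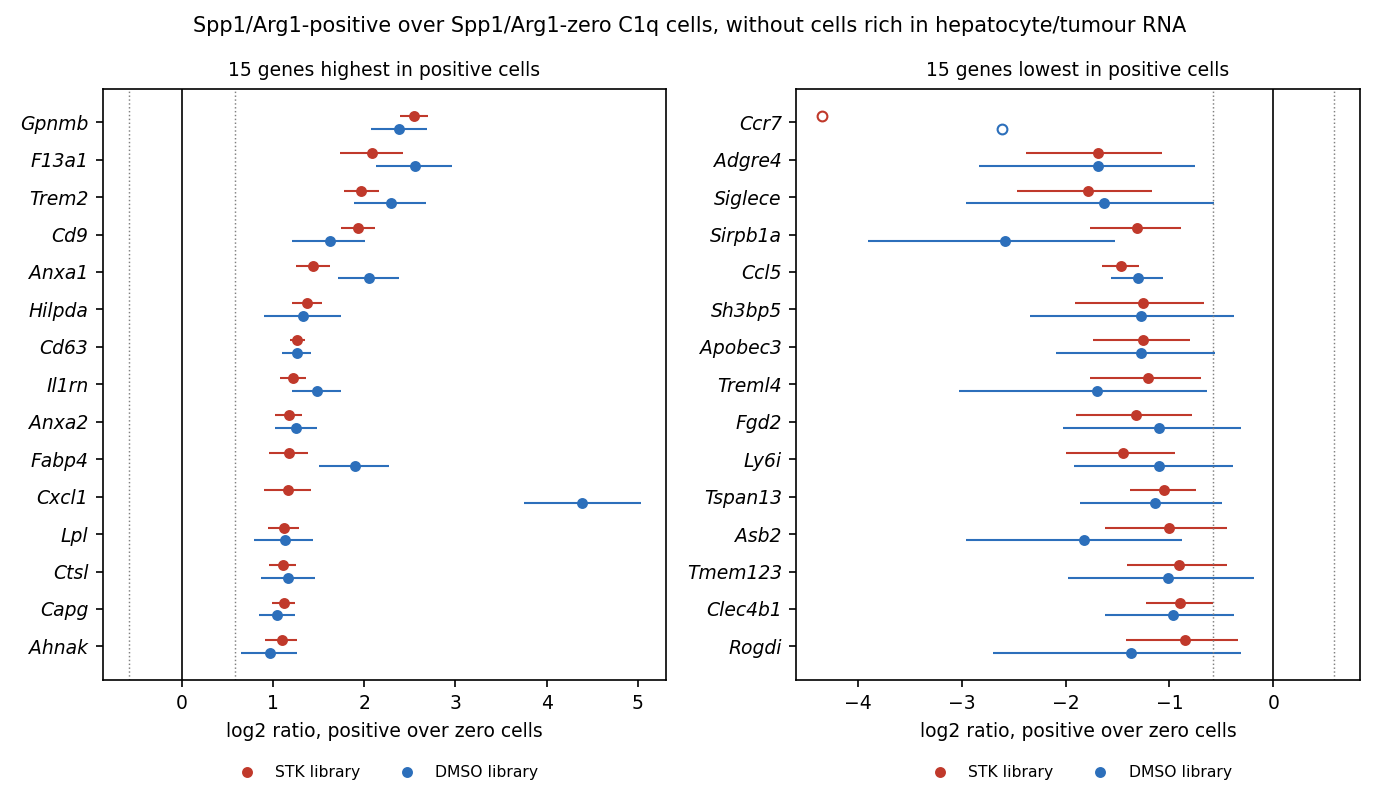
The log2 ratio of CPM in positive over zero cells (horizontal axis), without hepatocyte-rich cells, for the 15 genes highest and the 15 lowest in both libraries, with 95% intervals of counting error. Dotted lines mark 1.5-fold and open circles a cell set under the floor of 3 UMIs; Gpnmb leads the higher genes at 2.54 in the STK and 2.39 in the DMSO library.

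Further genes that led positive over zero cells in both libraries belong to other functions. Anxa1, which encodes a phospholipid-binding protein that restrains inflammation, stood at 303 CPM in STK positive and 119 CPM in STK zero cells, and at 247 and 72.3 CPM in the DMSO library (log2 ratios 1.35 and 1.77). Il1rn, the interleukin 1 receptor antagonist, stood at 485 and 224 CPM, and at 347 and 145 CPM (1.11 and 1.26). The actin-capping protein Capg had 1.04 and 0.79, the lysosomal protease Ctsl 1.05 and 1.34, and the membrane-linked Anxa2 1.15 and 1.00. Cxcl1, a neutrophil-attracting chemokine, had 1.05 in the STK library, while its 4.08 in the DMSO library rested on 52 UMIs, 51 of them in 1 cell. Over all positive cells, liver-type genes also led, with Serpina1e at 2.14 in the STK and 3.52 in the DMSO library, but without hepatocyte-rich cells Serpina1e was at -0.24 and -0.20. The 15 higher genes given without those cells share 6 with the 15 of the ranking over all cells, and the 15 lower genes share 14.

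Promoters are shown of genes that led positive cells in both libraries and that hold the motif described next. The sequences are RefSeq's for GRCm38.p6 and run from 250 bases before to 50 bases after each gene's start. Of the 15 higher genes, 13 were in the table with 17 such windows. Both strands of each were searched for TGANTCA, a loose form of the AP-1 motif that allows any middle base. It is a palindrome apart from that base. It lay in 6 of the 17 windows (35.3%), those of Gpnmb, Trem2, Il1rn and Anxa2 and 2 overlapping windows of Hilpda with the same match, against 2565 of 32851 windows of all genes (7.81%) and 0 of 16 windows of 12 of the 15 lower genes. The E-box CACGTG lay in 1 of 17 (5.88%) and 1 of 16 (6.25%) of these windows and in 7.15% of all. The middle base was C in Gpnmb, G in Il1rn and Anxa2, and A in Trem2 and both windows of Hilpda. Windows were not counted by middle base, so these shares hold for the loose form only. These genes and motifs were chosen with the values known, windows of 1 gene overlap, and a match is a description of letters, not of binding. Capitals mark TGANTCA, which begins 8 bases after the RefSeq start in Gpnmb and 9, 128, 141 and 95 bases before the start of the window shown in Trem2, Hilpda, Il1rn and Anxa2. Hilpda has another RefSeq start upstream, whose window puts the same match 10 bases after that start. The 2 other windows of Il1rn and both windows of Spp1 do not hold these letters, and the table has no Arg1 entry. All windows are on the plus strand, at chr6:49036268-49036567 for Gpnmb, chr17:48346151-48346450 for Trem2, chr6:29272376-29272675 for Hilpda, chr2:24336610-24336909 for Il1rn and chr9:69453433-69453732 for Anxa2.
Gpnmb: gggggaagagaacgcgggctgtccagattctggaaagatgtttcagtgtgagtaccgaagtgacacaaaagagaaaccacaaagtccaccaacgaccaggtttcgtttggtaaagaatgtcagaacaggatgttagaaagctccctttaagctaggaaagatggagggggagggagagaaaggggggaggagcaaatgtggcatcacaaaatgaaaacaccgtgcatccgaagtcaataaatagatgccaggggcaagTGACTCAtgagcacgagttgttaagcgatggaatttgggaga
Trem2: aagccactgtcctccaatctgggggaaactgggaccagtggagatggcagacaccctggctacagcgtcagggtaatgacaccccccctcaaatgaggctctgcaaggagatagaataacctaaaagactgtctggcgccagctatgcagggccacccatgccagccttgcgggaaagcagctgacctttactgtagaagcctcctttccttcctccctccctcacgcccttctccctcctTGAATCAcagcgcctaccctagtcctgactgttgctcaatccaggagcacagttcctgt
Hilpda: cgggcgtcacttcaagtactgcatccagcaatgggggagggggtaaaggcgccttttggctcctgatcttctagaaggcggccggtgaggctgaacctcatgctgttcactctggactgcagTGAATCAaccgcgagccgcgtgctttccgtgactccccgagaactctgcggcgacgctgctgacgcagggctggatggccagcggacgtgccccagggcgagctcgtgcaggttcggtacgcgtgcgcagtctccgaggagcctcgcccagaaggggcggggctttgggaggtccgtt
Il1rn: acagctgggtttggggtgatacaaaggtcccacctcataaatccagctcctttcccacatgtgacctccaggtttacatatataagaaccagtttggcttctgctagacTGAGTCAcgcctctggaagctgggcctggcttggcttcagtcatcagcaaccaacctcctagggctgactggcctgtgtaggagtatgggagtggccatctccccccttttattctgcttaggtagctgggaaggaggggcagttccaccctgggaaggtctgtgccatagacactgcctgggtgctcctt
Anxa2: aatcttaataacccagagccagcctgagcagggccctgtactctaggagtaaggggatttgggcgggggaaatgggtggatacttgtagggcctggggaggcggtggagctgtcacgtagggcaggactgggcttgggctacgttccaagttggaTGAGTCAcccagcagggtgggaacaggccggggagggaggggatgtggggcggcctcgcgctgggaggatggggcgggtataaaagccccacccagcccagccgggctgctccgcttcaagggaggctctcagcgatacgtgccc

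The 15 genes lowest in positive cells included receptors of non-classical monocytes and of dendritic cells beside genes of other functions. Adgre4, an adhesion receptor of non-classical monocytes, stood at 18.9 CPM in STK positive and 65.7 CPM in STK zero cells, and at 22.6 and 88.1 CPM in the DMSO library. Its log2 ratios were -1.80 (-2.49 to -1.18) and -1.96 (-3.10 to -1.02), with -0.22 and -2.04 among male cells. Treml4, another receptor of these monocytes, had 35 UMIs in 107 STK positive cells and 436 in 753 STK zero cells, and 7 and 348 UMIs in the DMSO library, with log2 ratios of -1.24 and -1.97. Siglece, an inhibitory sialic acid receptor, stood at 18.9 and 69.9 CPM and at 17.6 and 65.7 CPM, and the receptor Sirpb1a at 41.1 and 111 CPM and at 17.6 and 129 CPM. Ccl5, a T cell-attracting chemokine, stood at 284 CPM in STK positive and 732 CPM in STK zero cells, and at 347 and 1047 CPM in the DMSO library, and among male cells its log2 ratios were -2.22 and -1.47. Ccr7, the receptor of migratory dendritic cells, had no UMI in STK positive cells, against 384 UMIs in 33 of the 753 zero cells, and was at least 24.3-fold lower at a floor of 3 UMIs over the set. DMSO positive cells had 1 Ccr7 UMI, against 281 in 25 of the 849 zero cells.

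Marker lists of monocytes and dendritic cells differed in how they stood as sums. The 5 non-classical monocyte markers summed to 457 CPM in STK positive and 635 CPM in STK zero cells, and to 428 and 712 CPM in the DMSO library. The 4 migratory dendritic cell markers summed to 17.1 and 91.7 CPM, and to 25.2 and 148 CPM, with 1 of the 4 at 0 in the positive cells of each library. Of the zero cells, 55 of 753 and 45 of 849 had a UMI of that list, and the highest held 143 and 177. The zero cells thus held cells rich in these markers, and the part of such cells in the lower genes was not tested. Classical monocyte markers, 6 genes, summed to 1003 and 1651 CPM in STK positive and zero cells and to 1406 and 1817 CPM in the DMSO library. A broader list of 19 classical monocyte genes summed to 3267 and 3935 CPM in the STK library, but in the DMSO library positive cells stood higher, at 4280 CPM against 4134 CPM, and at 4973 CPM against 4161 CPM without hepatocyte-rich cells. The 5 markers of cDC2, a conventional dendritic cell, summed to 65.1 and 165 CPM in the STK library and to 141 and 150.5 CPM in the DMSO library, where they stood at 172 and 151 CPM without hepatocyte-rich cells. The 4 plasmacytoid dendritic cell markers summed to 681 and 979.6 CPM in the STK library and to 813 and 804 CPM in the DMSO library.

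**Figure D3:**
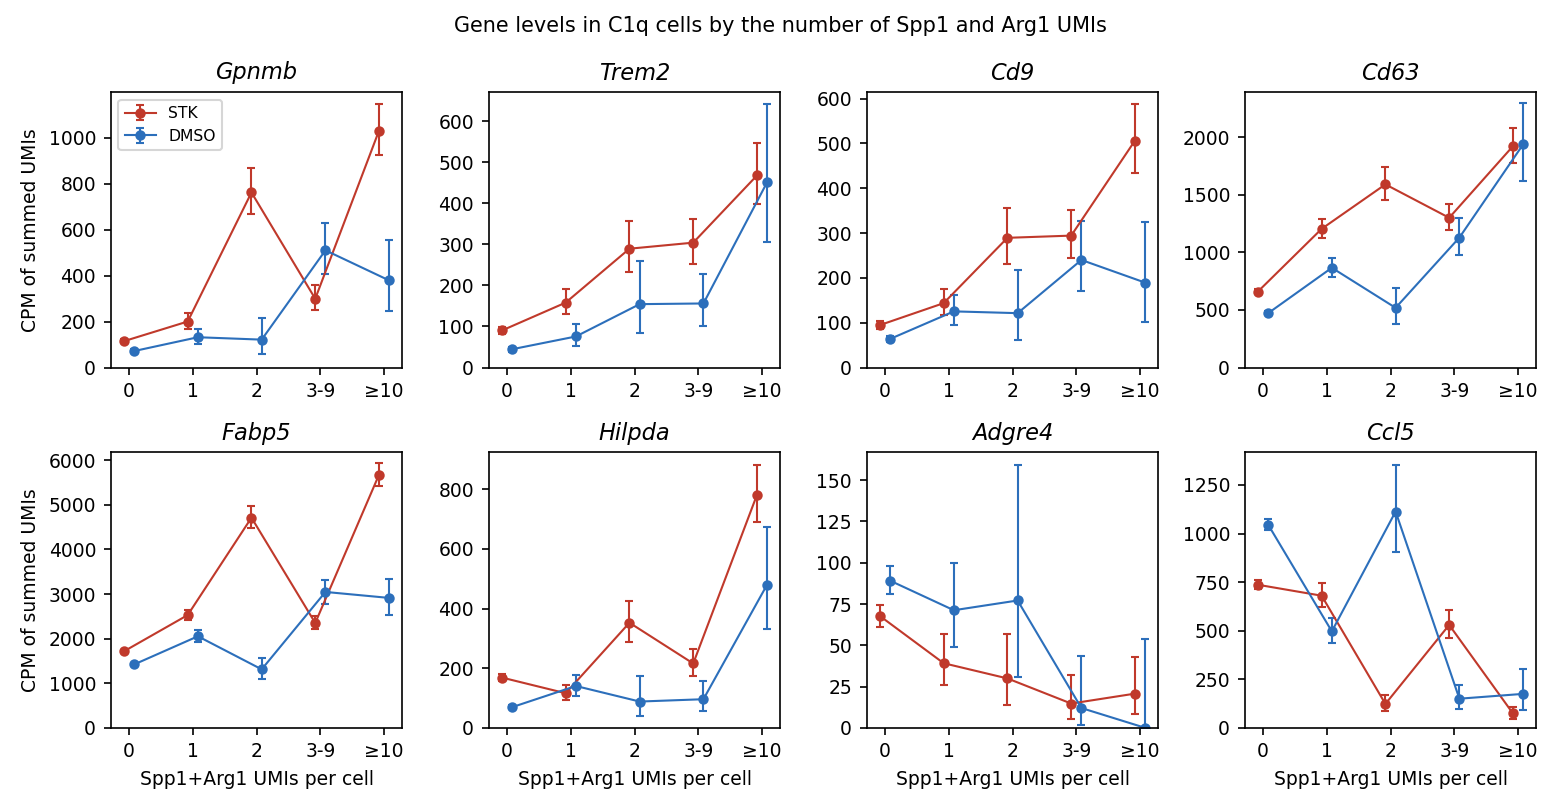
CPM of 8 genes (vertical axes) in C1q cells grouped by their Spp1 plus Arg1 UMIs (horizontal axis: 0, 1, 2, 3 to 9, 10 or more), without hepatocyte-rich cells, with 95% intervals of counting error. STK is drawn left of DMSO; Trem2 is lowest at 0 UMIs and highest at 10 or more in both libraries, while Adgre4 is highest at 0 UMIs in both.

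Levels across the number of Spp1 and Arg1 UMIs show whether the difference lay at the threshold. Trem2 stood, in STK cells with 0, 1, 2, 3 to 9 and 10 or more such UMIs, at 90.1, 158, 289, 304 and 468 CPM, and in DMSO cells at 44.5, 75.5, 154, 156 and 451 CPM. Trem2 thus followed the same order in both libraries, and cells with 1 UMI lay between those with 0 and 2. The 154 and 156 CPM of DMSO cells had overlapping intervals (84.3 to 259 and 102 to 228), so their order is not resolved. Cd63 stood at 658.5, 1203, 1589, 1299 and 1921 CPM in STK cells and at 471, 866, 518, 1128 and 1937 CPM in DMSO cells. Cd63 was thus ordered in neither library. Nor was Gpnmb, at 114.5, 200.1, 761.5, 299 and 1030.2 CPM in STK and 71.5, 132, 121, 509.8 and 379 CPM in DMSO cells. The DMSO groups of 2, 3 to 9 and 10 or more UMIs held 14, 18 and 12 cells.

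Other gene lists differed between positive and zero cells, and their counts are given without hepatocyte-rich cells, where 9.62% and 10.7% of all genes were higher and lower by 1.5 times in the STK library, and 11.0% and 11.1% in the DMSO library. Of the matrix and angiogenic genes, 14 of 22 measured were higher in the STK library (median log2 ratio 0.73) and 9 of 20 higher and 1 lower in the DMSO library (0.45). Adam8, a membrane metalloprotease, stood over all cells at 123 CPM in STK positive and 43.3 CPM in STK zero cells, and at 80.5 and 23.4 CPM in the DMSO library. Mmp19, a secreted metalloprotease, stood at 87.4 and 24.9 CPM and at 27.7 and 13.1 CPM. Vegfa stood at 195 and 71.1 CPM and at 47.8 and 16.0 CPM, and Thbs1 at 699 and 486 CPM and at 548 and 199 CPM. Pf4, a platelet-type chemokine also made by macrophages, is not a gene of this list. It stood at 265 and 84.3 CPM in the STK library, and at 95.6 and 69.5 CPM in the DMSO library, where it stayed under 1.5-fold over all cells.

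Of the glycolysis and hypoxia genes, 15 of 31 were higher and 1 lower in the STK library (median 0.53), and 8 of 32 higher in the DMSO library (0.34). Ldha, lactate dehydrogenase A, had a log2 ratio of 0.59 in both libraries without hepatocyte-rich cells, and Pgk1, phosphoglycerate kinase, 0.75 and 0.67. The lactate exporter Slc16a3 had 0.93 and 1.34, although among male cells of the DMSO library it was at -0.92 from 4 UMIs. The glucose transporter Slc2a1 had 0.48 and 1.59. Of the scavenger receptors and lipid uptake genes, 9 of 19 were higher and 1 lower in the STK library (0.49), and 9 of 20 higher and 1 lower in the DMSO library (0.34). Stab1, a scavenger receptor for modified lipoproteins, had 0.98 and 1.71.

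The lysosome list was higher by less. Of its 37 genes, 6 were higher in the STK library (median 0.28) and 5 higher and 1 lower in the DMSO library (0.18), which is near the share of all genes. The aspartyl protease Ctsd had log2 ratios of 0.86 and 0.75, and Atp6v0d2, a subunit of the proton pump, 1.32 and 1.05.

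The inflammatory list was split. Of 27 genes, 8 were higher and 3 lower in the STK library (median 0.30), and 14 higher and 2 lower in the DMSO library (0.68). Tnf, the tumour necrosis factor gene, stood at 106 CPM in STK positive and 128 CPM in STK zero cells, and at 327 and 64.3 CPM in the DMSO library. Il1b, the interleukin 1 beta gene, had log2 ratios of -0.61 and -0.00 without hepatocyte-rich cells, while its antagonist Il1rn had 1.22 and 1.48. Clec4d, a lectin receptor, had 1.15 and 1.46.

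Genes induced by interferon were not higher as lists. Of the type I interferon list none of 24 was higher, and 7 were lower in the STK library (median -0.35) and none in the DMSO library (-0.05). Irf7, the transcription factor that amplifies the response, stood over all cells at 423 CPM in STK positive and 715 CPM in STK zero cells, and at 564 and 895 CPM in the DMSO library. Of the interferon-gamma and class II list, none of 26 was higher and 4 lower in the STK library (-0.28), and 1 was higher and 7 lower in the DMSO library (-0.27). Cxcl9, a chemokine induced by interferon gamma, stood at 166 and 217 CPM in the STK library and at 111 and 336 CPM in the DMSO library. The antigen-presenting chain H2-Aa had log2 ratios of -0.26 and 0.00, under 1.5-fold in both.

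Over all cells, 12.7% of all genes were higher in STK and 19.2% in DMSO positive cells, and 9.62% and 11.0% without hepatocyte-rich cells. Of the proliferation genes, 11 of 30 were higher in STK and 22 of 30 in DMSO positive cells over all cells, and 7 and 15 without hepatocyte-rich cells, at medians of 0.28 and 0.58. Of the cholesterol synthesis genes, 8 of 25 and 14 of 24 were higher over all cells, and 1 of 25 and 2 of 24 without them, with 3 and 5 lower. The LXR and sterol efflux list had 5 of 18 and 3 of 18 genes higher without them, among which Apoe, the lipoprotein ligand, had log2 ratios of 0.72 and 0.71. The checkpoint ligands and suppressive molecules had 2 higher of 20 in each library, at medians of -0.03 and 0.00. The osteopontin receptors, the partners of Spp1, had 1 of 9 higher in the STK library and none of 8 in the DMSO library.

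**Figure D4:**
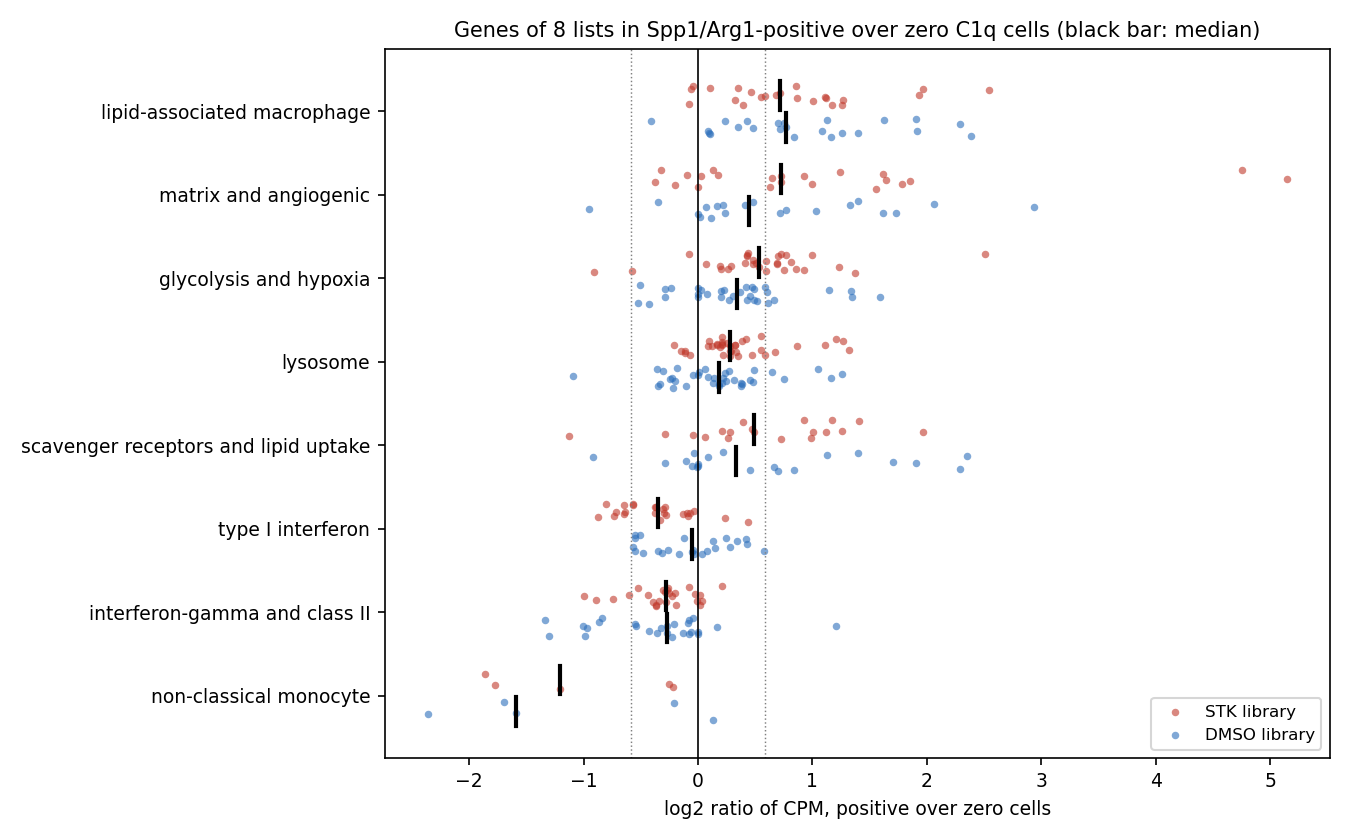
The log2 ratio of CPM in positive over zero cells (horizontal axis) for each measured gene (dots) of 8 lists, without hepatocyte-rich cells, STK above DMSO in each list; black bars are medians and dotted lines mark 1.5-fold. The lipid-associated list has medians of 0.72 and 0.77, and the type I interferon list of -0.35 and -0.05.

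The 2 sterol genes that bear on the study's title were named whatever their value. Soat1, the sterol O-acyltransferase that esterifies cholesterol for storage, stood at 158 CPM in STK positive and 117 CPM in STK zero cells, and at 169 and 106 CPM in the DMSO library. Between positive cells of the libraries its log2 ratio, STK over DMSO, was -0.10 (-0.51 to 0.33), an interval that does not reach 1.5-fold. Soat2, the form of liver and intestine, had 4 UMIs in STK positive cells and none in DMSO positive cells. Gpr132, a G protein-coupled receptor, stood at 65.1 CPM in STK positive and 111 CPM in STK zero cells, and at 20.1 and 56.2 CPM in the DMSO library, so it was lower in positive cells of both. STK over DMSO, Gpr132 had a log2 ratio of 1.69 (0.64 to 2.96) in positive cells, from 76 and 8 UMIs, and 0.98 in zero cells.

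Between the libraries, 12.9% of genes measured in positive cells were at least 1.5 times higher in STK and 18.9% lower, of 8708 genes. Among zero cells the shares were 7.72% and 10.2% of 11882 genes. Without hepatocyte-rich cells the shares were 14.1% and 14.9% in positive cells and 7.06% and 11.4% in zero cells. Over all genes measured the median log2 ratio was -0.05 in positive and -0.02 in zero cells. STK and DMSO cells are the same libraries in both comparisons, so the values of positive and zero cells are given side by side.

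Several secreted and matrix genes were higher in STK than in DMSO positive cells. Gdf15, a stress-induced cytokine, stood at 388 CPM in STK positive and 47.8 CPM in DMSO positive cells, a log2 ratio of 3.02 (2.36 to 3.77), against 0.87 in zero cells. It was found in 34 of 107 STK cells, with at most 114 UMIs in 1 cell, and in 8 of 46 DMSO cells. Mmp12, the macrophage elastase, stood at 231 and 37.7 CPM (log2 ratio 2.61, 1.86 to 3.47), against 1.57 in zero cells, and was found in 22 STK and 6 DMSO positive cells. Vegfa stood at 195 and 47.8 CPM (2.03, 1.35 to 2.78), against 2.15 in zero cells. Egr1, an immediate-early transcription factor, stood at 213 and 35.2 CPM (2.59), against 1.79 in zero cells. For Vegfa the ratio was thus as large in zero as in positive cells. Among male cells the log2 ratios of Gdf15, Vegfa and Egr1 in positive cells were 5.18 (3.61 to 7.48), 3.63 (2.21 to 5.55) and 2.29 (1.37 to 3.35), from 3, 4 and 11 UMIs in the DMSO cells.

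Further genes higher in STK positive cells rested on few DMSO UMIs. Dgat1, which makes triglyceride from diacylglycerol, stood at 52.3 CPM in STK and 10.1 CPM in DMSO positive cells, with a log2 ratio of 2.38 (0.95 to 4.30), against 1.59 in zero cells. Kcnn4, a calcium-gated potassium channel, stood at 65.1 and 12.6 CPM (2.37, 1.09 to 4.04), against 0.37 in zero cells, and Nrp1, a co-receptor of VEGF, at 72.9 and 15.1 CPM (2.27, 1.09 to 3.76), against 0.18 in zero cells. The ratio in positive cells was larger than in zero cells for both, a difference that was not tested. The lipase Pla2g2d had 58 UMIs in 7 STK cells and 3 in 1 DMSO cell.

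Heat shock genes were lower in STK cells, both positive and zero. Hspa1a, an inducible chaperone, stood at 46.3 CPM in STK and 759.8 CPM in DMSO positive cells, a log2 ratio of -4.04 (-4.48 to -3.62), against -3.70 in zero cells. Its neighbour Hspa1b, a near-identical copy whose reads may be shared with it, stood at 14.6 and 481 CPM (-5.04), against -4.34 in zero cells. Of the heat shock and dissociation stress list, 2 of 24 genes were higher and 11 lower in positive cells (median -0.43 without hepatocyte-rich cells), and 2 higher and 10 lower in zero cells (-0.37), beside 14.1% of all genes higher and 14.9% lower in positive cells and 7.06% and 11.4% in zero cells. Handling of the tissue is 1 source of such RNA, and its part was not tested. Jun and Atf3, which encode transcription factors of the AP-1 and stress responses, stood at 675 and 1044 CPM and at 714 and 1532 CPM in STK and DMSO positive cells. For Jun, 301 of the 787 STK UMIs were in 1 cell, and its log2 ratio was -0.63 over all cells, -1.69 without hepatocyte-rich cells and 0.30 among male cells.

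Further genes lower in STK positive cells had different functions. Tnf stood at 106 CPM in STK and 327 CPM in DMSO positive cells, a log2 ratio of -1.62 (-1.99 to -1.26), while in zero cells it was 0.99 (0.80 to 1.18), the opposite direction. Of the 130 DMSO UMIs, the highest cell held 49, and 14 of 46 cells had any. Plk2, a stress-induced kinase, stood at 49.7 and 133 CPM (-1.42), against 0.12 in zero cells. Ccl3, an inflammatory chemokine, stood at 187 and 569 CPM (-1.61), against -1.22 in zero cells, and was -0.21 among male cells. Lyz1, a lysozyme gene with a near-identical neighbour, stood at 7.71 and 204 CPM (-4.72), with 81 UMIs in 7 DMSO cells, against 0.83 in zero cells. Chil3, a chitinase-like protein of monocytes, stood at 73.7 and 199 CPM (-1.43) and was -0.28 among male cells.

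Without hepatocyte-rich cells, where 14.1% of all genes were higher and 14.9% lower in STK positive cells, and 7.06% and 11.4% in zero cells, the lists were counted in the same way. The type I interferon genes had none of 24 higher and 11 lower in STK positive cells (median -0.55), and none higher and 5 lower in zero cells (-0.25). The lysosome list had 8 of 37 higher and none lower in positive cells (0.40), and 2 higher in zero cells (0.18). The matrix and angiogenic list had 10 of 21 higher and 3 lower (0.46), and 10 of 22 higher in zero cells (0.49). The classical monocyte list had none of 18 higher and 8 lower in positive cells (-0.53), and 3 higher and 2 lower in zero cells (-0.08). The lipid-associated macrophage list had 6 of 23 higher and 1 lower in positive cells (0.35), and 4 higher in zero cells (0.33). Gpnmb, at 0.99 in positive and 0.66 in zero cells over all cells, was at -0.28 and -1.24 among male cells, the first from 25 STK and 19 DMSO positive cells, so its direction between libraries was not the same in male cells as in all cells. With 1 female DMSO positive cell, female cells gave no such comparison. Trem2, at 0.87 and 1.00, was at 1.46 and 1.47 among male cells.

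**Figure D5:**
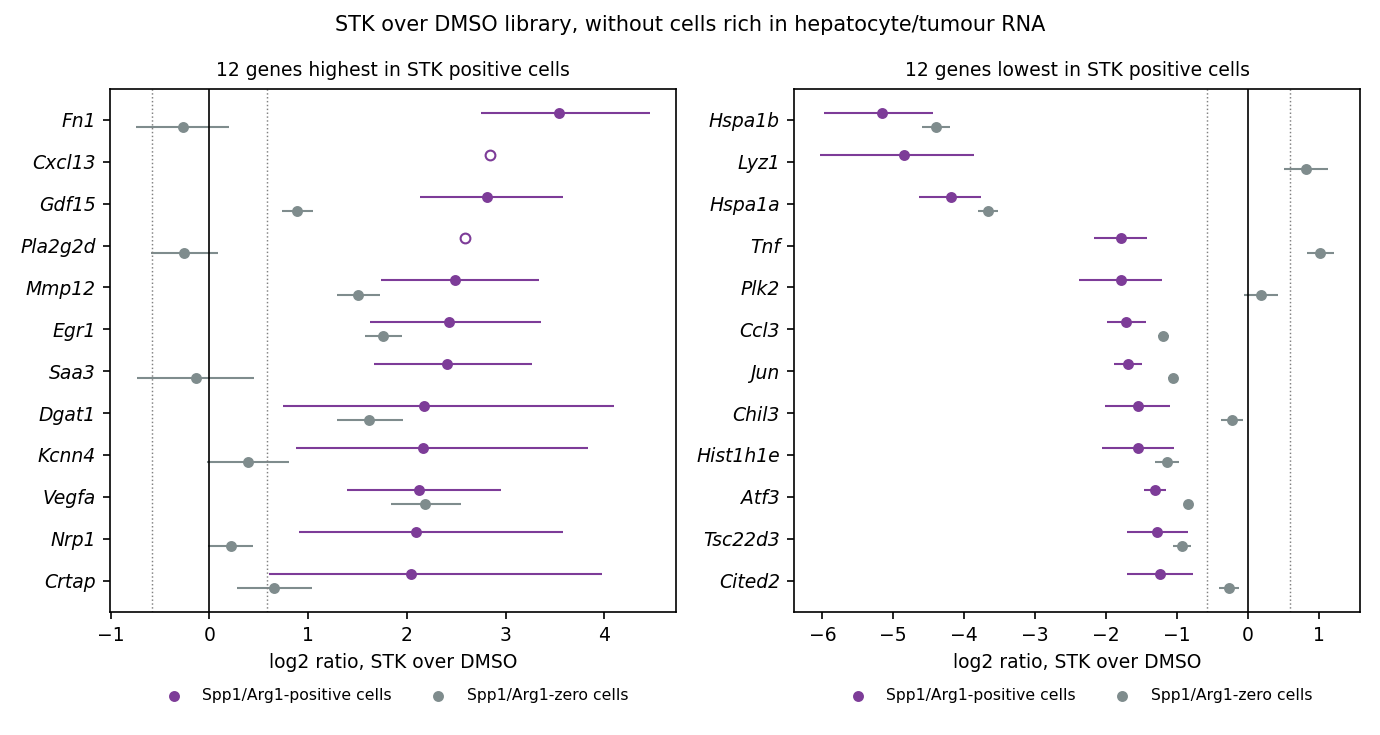
The log2 ratio of STK over DMSO CPM (horizontal axis) in positive cells (purple) and zero cells (grey) for the 12 genes highest and 12 lowest in positive cells, without hepatocyte-rich cells, with 95% intervals of counting error. Dotted lines mark 1.5-fold and open circles a cell set under the floor of 3 UMIs; Hspa1a and Hspa1b are low in both cell sets, while Tnf lies on opposite sides.

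Fn1 had the largest ratio among the named genes higher in STK than in DMSO positive cells, and it rested on few cells. Fn1 (chr1:71585520-71653200, minus strand) stood at 423 CPM in STK and 45.3 CPM in DMSO positive cells, a log2 ratio of 3.22 (2.55 to 3.99), against -0.22 in zero cells. There were 3 STK positive cells with 236, 100 and 41 Fn1 UMIs, which held 377 of 493 UMIs (76.5%), and without them and the hepatocyte-rich cells the log2 ratio was 1.42 (0.58 to 2.37). The same 3 cells held 248 of 256 UMIs of Saa3, an acute-phase protein, and all 69 UMIs of Cxcl13, a B cell-attracting chemokine, the last in 1 cell. They also held 16 of 19 UMIs of Timp1, a metalloprotease inhibitor, and 30 of 41 UMIs of Slc7a2, an arginine transporter. They had 5, 3 and 20 Arg1 UMIs, 2, 0 and 0 Spp1 UMIs and no Gpnmb UMI. Of the other 104 STK positive cells, 21 had Fn1, with at most 29 UMIs, and of the DMSO cells 10 had it, with at most 3.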

How the data were processed

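Single-cell RNA was measured in 1 STK and 1 DMSO library. What the authors deposited are UMI counts, not normalized, of every gene in every barcode. They were written by Cell Ranger 6.0.2 per the file headers, on GRCm38 (mm10) per the submitters' processing notes. No annotation or aligner setting is stated in the sources used here. Both list 32285 genes. The members, gene lists and motifs were chosen with earlier results of these data known.

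Cells were selected by the rule given above. Doublet scores came from Scrublet (scanpy 1.11.5) with 8% expected. Its automatic threshold called no STK cell, so the 4% highest scores were called in each library (425 STK and 419 DMSO cells) and kept. UMIs were summed over the cells of a set and divided by all UMIs of the set (CPM), without another normalization. Genes with at least 10 UMIs over both sets were measured, and past 1.5-fold was counted. A set under 3 UMIs was put at a floor of 3 UMIs in ratios. CPM have exact Poisson, shares exact Clopper-Pearson and ratios exact conditional binomial 95% intervals. PCR copies were collapsed by UMI, and intervals cover counting error only. There is no test, since each group is 1 library.

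Genes named for positive over zero cells are the 15 highest and 15 lowest by the ratio nearer to equality of the libraries, with the same sign in both. Those for STK over DMSO are the 12 highest and 12 lowest. Each had at least 50 CPM and 50 UMIs in the higher set, and rule, receptor-segment, mitochondrial, ribosomal, sex-linked, haemoglobin, hepatocyte-list and model genes were left out. The ranking without hepatocyte-rich cells was chosen after seeing the data. C1qa, Spp1, Arg1, Fn1, Trem2, Soat1, Soat2 and Gpr132, and genes of some of the lists, were named as well. Not every list is described, and for some only counts are given. A few genes (Cd5l, Timp1, Slc7a2) were described after their values were seen. A cell was female with an Xist UMI and no Y-linked UMI, and male the other way round. Scripts ran in Python 3.11.15 with numpy 2.4.6, scipy 1.17.1, pandas 2.3.3 and matplotlib 3.10.9 and were tested on simulated data. Alternatives were the thresholds of the rule, thinning, doublets, sex, depth, scaling and low-count filters.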

Additional observations from a re-analysis of the deposited data

Results flagged for a closer look

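Gdf15 was higher in positive than in zero cells of the STK library, with a log2 ratio of 1.02, and lower in the DMSO library, with -1.13. Lyz1 had -2.57 in the STK and 2.99 in the DMSO library, Pla2g2d 1.04 and -1.97, and Mgl2 -2.06 and 0.996. These genes lay past 1.5-fold in opposite directions in the 2 libraries, and the difference was not tested. For Mgl2, a lectin of macrophages and dendritic cells, 42 of the 43 UMIs of DMSO positive cells were in 1 cell.

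Spp1 and Arg1 were also found in cells that the rule left out. STK C1q cells with 2 or more Kupffer genes, 71 cells, held Spp1 at 55.4 CPM in 11 cells and Arg1 at 259 CPM in 4 cells, with 100 of 145 Arg1 UMIs in 1 cell, while the 24 such DMSO cells had 1 UMI of each gene. STK C1q cells with a Cd3 UMI, 132 cells, held Spp1 at 857 CPM, with 1232 of 1279 UMIs in 1 cell, and Arg1 at 71.7 CPM. The 92 such DMSO cells held Spp1 at 56.2 CPM and Arg1 at 35.0 CPM.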

How the results depend on the processing

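Each group is 1 library, so leaving out a replicate was not possible. No paired analysis was possible because the groups hold 1 library each. The higher share of positive cells in the STK library kept its direction under each alternative tried, and its ratio lay between 2.11 and 3.40 apart from the sexes. Of female filtered cells it was 10.9 and of male filtered cells 3.60, with 5.42 and 3.59 of C1q cells. Leaving out cells of 50 or more hepatocyte or tumour UMIs, these cells also without those of 40 or more Fn1 UMIs, male cells without hepatocyte-rich cells, and a minimum of 10 UMIs expected in the smaller set were added after seeing the data.

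Counts of genes past 1.5-fold moved most with the low-count filter, which tests fewer genes. Shares in brackets are of the genes measured under the same setting. Positive over zero, the STK library had 1424 genes higher (12.7%) and 1072 lower (9.56%) over all cells at the minimum of 10 UMIs. It had 838 higher (8.98%) at a minimum of 30 UMIs and 496 (6.40%) at 10 expected UMIs. At 10 expected UMIs 649 were lower (8.38%). The DMSO library had 2090 higher (19.2%) and 1268 lower (11.6%) over all cells at the minimum of 10 UMIs. In cells of 3000 to 12000 UMIs 1198 were higher (11.6%). Without hepatocyte-rich cells 1174 were higher (11.0%), with or without the Fn1-rich cells, and 1126 in male cells without hepatocyte-rich cells (11.8%). At 10 expected UMIs 514 were higher (10.9%) and 689 lower (14.6%), so the share lower was larger though the count was smaller. STK over DMSO among positive cells, 1119 were higher (12.9%) and 1643 lower (18.9%) over all cells at the minimum of 10 UMIs. At 30 UMIs 687 were higher (12.1%) and 748 lower (13.2%), and at 10 expected UMIs 537 (11.3%) and 547 (11.5%). In cells of 3000 to 12000 UMIs 1059 were lower (16.1%), and 768 in male cells without hepatocyte-rich cells (16.0%).

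Several genes that were higher in positive cells over all cells, and the hepatocyte or tumour list, changed sign under some settings. For each gene only the settings that changed its sign are given, and the cause was not tested. Log2 ratios of positive over zero cells follow in this order: a minimum of 5 Spp1 and Arg1 UMIs, cells of 3000 to 12000 UMIs, without hepatocyte-rich cells, and without these and the Fn1-rich cells. In the STK library the hepatocyte or tumour list median was -0.52, -0.11, -0.35 and -0.33 (-0.088 in male cells without hepatocyte-rich cells). Serpina1e was -0.92, -0.037, -0.24 and -0.31, Apom -1.88, -0.48, -0.42 and -0.39, and Pcbd1 -1.47, -0.018, -0.64 and -0.61. Fkbp11 was -2.35, -0.056 and -0.024, Phgdh -1.41, -0.040 and -0.0088, and Bex1 -0.79, -0.46 and -0.55 under these settings other than 3000 to 12000 UMIs, and Bex4 was -0.89 and -0.11 under the first 2. Bex1 was -0.10 with hepatocyte RNA below 1% and -0.91 in male cells without hepatocyte-rich cells. In the DMSO library the values under the last 2 of these settings, alike in both, were -0.21 for the list, -0.20 for Serpina1e, -0.82 for Fkbp11, -0.15 for Apom, -0.29 for Pcbd1, -1.36 for Bex1 and -0.76 for Apoc1. In cells of 3000 to 12000 UMIs, Fkbp11 was -0.11, Phgdh -0.013, Bex1 -1.05 and Apoc1 -0.98, and Apoc1 was -0.033 with hepatocyte RNA below 1% and -0.31 as a mean of CPM per cell. In male cells without hepatocyte-rich cells, Bex1 was -0.84, Apoc2 -0.45 and Apoc1 -0.40. STK over DMSO among positive cells, Phgdh was 0.30 in cells of 3000 to 12000 UMIs, Saa3 -2.56 without the Fn1-rich cells, which held most of its UMIs, and Sephs2 0.44 in male cells without hepatocyte-rich cells.

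Of all log2 ratios of named genes under the alternatives, 736 moved by less than their interval, 241 by more and 49 reversed, and of list medians 727, 41 and 7. Depth limits genes with few UMIs in the 46 DMSO positive cells most, where a level of 3 UMIs is the floor.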
